A study of Mus musculus with 6 samples.

Results

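The genes described here are 9 members of the signalling loop between Indian hedgehog and parathyroid hormone related protein, with the receptors and effectors of hedgehog signalling. They are Ihh, Pthlh, Pth1r, Ptch1, Smo, Gli1, Gli2, Gli3 and Hhip. They were picked by symbol from the 43472 gene symbols counted in the intervertebral disc (IVD), and all 9 were present and passed the filter on low counts. The set was chosen from the same mutant against control differences that are given below, so for these genes every difference between genotypes is a description without a test.

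The 6 libraries were made from IVDs of the thoracic and lumbar spine of mice at postnatal day 20. 3 libraries came from Col2Cre;Adgrg6 f/f mutants, in which Cre under a Col2 promoter removes a floxed part of Adgrg6, an adhesion G protein-coupled receptor. 3 came from controls that the genotype labels call wild type, the titles Col2Cre controls and the study Cre (-) littermates. All carry the strain label C57B6/J, and each library pooled the discs of 2 to 3 mice, so its value is an average over animals. Col2Cre is active through the whole disc and, according to the study, also in periosteum and trabecular bone, so the intended loss of the receptor is not limited to a single cell type of the disc. The comparison asks which genes differ in discs labelled as Adgrg6 mutant at this early age. Values of single libraries are listed below in the order of replicates 1, 2 and 3.

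Indian hedgehog is secreted by prehypertrophic chondrocytes, the cells of growth plate cartilage that have just left the cell cycle. It binds Ptch1, which releases Smo, and the signal reaches the Gli transcription factors, whose targets include Ptch1, Gli1 and Hhip themselves. In the growth plate, hedgehog signalling raises the level of PTHrP, the product of Pthlh, which acts through its receptor Pth1r to hold chondrocytes back from hypertrophy and so limits the number of cells that make Ihh.

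RefSeq on GRCm38.p6 gives a promoter window, from 250 bases before to 50 bases after a start site, for 8 of the 9 members, with 10 windows in all. Gli1 has no window in the table used. The windows of Ihh, of the most upstream start of Pth1r and of Hhip are shown because Ihh and Pth1r were the members that were lower in every mutant library, while Hhip is a hedgehog target that was not. Capitals mark the GC box GGGCGG, searched on both strands, and the cAMP response element TGACGTCA.
Ihh, chr1:74951623-74951922, minus strand: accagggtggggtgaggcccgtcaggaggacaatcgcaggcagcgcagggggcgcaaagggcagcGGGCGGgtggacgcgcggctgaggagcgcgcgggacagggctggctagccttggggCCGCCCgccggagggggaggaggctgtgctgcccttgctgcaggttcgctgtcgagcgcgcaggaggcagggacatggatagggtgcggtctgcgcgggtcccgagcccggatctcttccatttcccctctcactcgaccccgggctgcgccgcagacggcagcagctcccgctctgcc
Pth1r, chr9:110747096-110747395, minus strand: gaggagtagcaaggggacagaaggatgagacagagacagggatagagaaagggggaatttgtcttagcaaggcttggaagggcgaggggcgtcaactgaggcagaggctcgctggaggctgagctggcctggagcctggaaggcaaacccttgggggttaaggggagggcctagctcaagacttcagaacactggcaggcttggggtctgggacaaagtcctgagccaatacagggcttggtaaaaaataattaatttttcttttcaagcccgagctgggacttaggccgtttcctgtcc
Hhip, chr8:80057959-80058258, minus strand: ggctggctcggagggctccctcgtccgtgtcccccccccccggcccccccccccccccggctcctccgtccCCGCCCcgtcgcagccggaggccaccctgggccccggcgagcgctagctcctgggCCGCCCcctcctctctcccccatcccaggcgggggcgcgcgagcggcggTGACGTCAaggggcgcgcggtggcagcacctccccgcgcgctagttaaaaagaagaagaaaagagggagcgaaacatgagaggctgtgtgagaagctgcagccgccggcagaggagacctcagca
The GC box was present in 8 of the 10 windows of the members, against 35.7% of all 32851 windows of the same length. The upstream window of Pth1r printed here had none, with 54.3% G and C bases against 72.7% for Ihh. The cAMP response element, which overlaps none of the other motifs here, was in the Hhip window alone, at position -75 from the start site, and in 1.79% of all windows. A Gli site, GACCACCCA, was in none of the 10 windows and in 0.253% of all windows, and the Runx site TGTGGT was in the window of Gli3 alone and in 16.8% of all windows. A match of letters is a description of these windows and says nothing about binding.

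The targeted gene was read first as a check of the labels. It appears in the files under its older symbol Gpr126, at chr10:14402583-14545659 on GRCm38. Its level was 124, 108 and 94.3 CPM (counts scaled to a common library total, with TMM factors) in the controls and 138, 124 and 106 CPM in the mutants. The groups overlapped, with a log2 fold change of mutant over control of 0.17 (SE 0.18) and an unadjusted p of 0.367 and an adjusted p of 0.849 in edgeR. Counts over the whole gene do not measure the floxed part, so this level neither supports nor contradicts the labels.

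Counts on genes per library ranged from 9061491 to 12017008, and 39.4% to 43.3% of reads fell outside genes. Markers of the cartilage of the disc were abundant, with the summed level of 13 genes of resting and proliferating chondrocytes between 79697 and 139744 CPM in the 6 libraries. Col2a1 made up most of that sum, at 62708 to 124063 CPM, so the sum says little about the other genes of the list. Markers of nucleus pulposus and notochord summed to 1156 to 2322 CPM. Of these, Noto was too low to be tested and the other 7 were tested. Control replicate 1 stood apart in the 7 markers of skeletal muscle, with a summed level of 3970 CPM against 196 to 284 CPM in the other 5 libraries. Of 16152 genes tested with edgeR, 7.21% passed an unadjusted p under 0.05, 4.32% as lower and 2.89% as higher in mutants, and 0.00619%, the gene Prss50 (named after its value was seen), passed after Benjamini-Hochberg adjustment. Every mutant library lay below every control library for 5.96% of genes and above for 5.45%.

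Of the 9 members, 2, Ihh and Pth1r, were lower at an unadjusted p under 0.05, beside 4.32% of all genes. The same 2 had every mutant library below every control library, beside 5.96% of all genes, and none was higher by either count. Nothing is read from these counts, since the set was chosen on this contrast. None passed after adjustment in edgeR or limma-voom, and 1 did in DESeq2. The log2 fold change was below 0 for 6 members and above 0 for 3, with a median of -0.20 over the members against -0.01 over all genes tested.

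Ihh, the hedgehog ligand of cartilage, lies at chr1:74945315-74951672. Its level was 188, 189 and 112 CPM in the controls and 63.3, 47.7 and 63.6 CPM in the mutants. The 3 mutant libraries lay close together, and the highest of them was well below the lowest control, replicate 3. The mean was 163 ± 44.0 CPM (SD, n = 3) in controls and 58.2 ± 9.12 CPM (SD, n = 3) in mutants, a level 2.80-fold lower, or a log2 fold change of -1.49 (SE 0.24). These values rest on 1437 to 1757 counts per control library and 556 to 599 per mutant library. With any 1 library left out, the log2 fold change stayed between -1.69, without control replicate 3, and -1.35, without mutant replicate 2. In a bulk sample, fewer cells that make Ihh and less Ihh RNA per cell cannot be told apart.

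Pthlh, which encodes PTHrP, lies at chr6:147252101-147264183 and was the least counted member, with 50 to 127 counts per library. Its level was 5.35, 6.88 and 7.04 CPM in the controls and 14.5, 5.79 and 7.01 CPM in the mutants. Mutant replicate 1 was the only library far from the rest, and the other mutant libraries lay within the range of the controls. The mean was 6.42 ± 0.93 CPM (SD, n = 3) in controls and 9.09 ± 4.69 CPM (SD, n = 3) in mutants. The log2 fold change of 0.49 (SE 0.38) became 0.03 without mutant replicate 1, so the direction of the mean rests on that library.

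**Figure D1:**
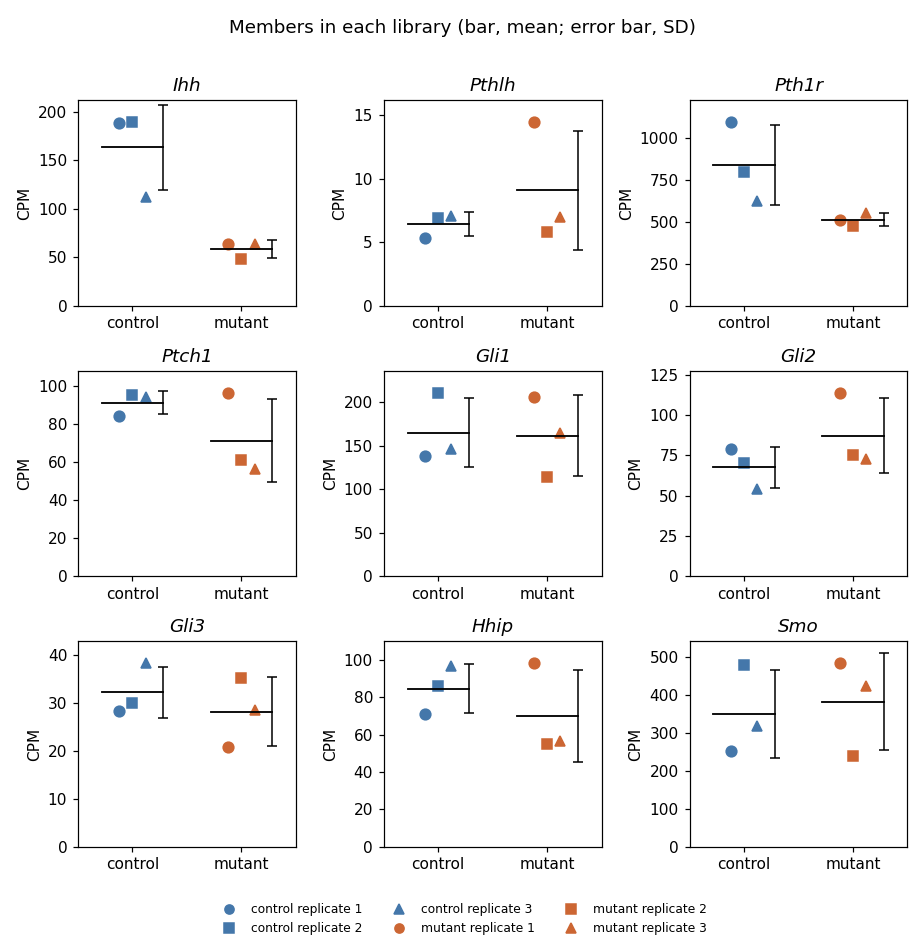
Level of each of the 9 members in CPM (linear axis from 0) in the 3 control (blue) and 3 mutant (orange) libraries, with the mean as a horizontal bar, the SD (n = 3) as an error bar and replicates by marker shape. For Ihh and Pth1r all mutant points lie below all control points, and in the other 7 panels the groups overlap.

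Pth1r, the receptor for PTHrP and parathyroid hormone, lies at chr9:110722085-110747145. Its level was 1093, 798 and 621 CPM in the controls and 512, 475 and 550 CPM in the mutants. The controls were spread widely and the mutants narrowly, and the gap between the groups lay between control replicate 3 and mutant replicate 3. The mean was 837 ± 238 CPM (SD, n = 3) in controls and 512 ± 37.4 CPM (SD, n = 3) in mutants, a 1.64-fold lower level with a log2 fold change of -0.71 (SE 0.24). Control replicate 1, the library with the skeletal muscle RNA, was also the highest for Pth1r, and without it the log2 fold change was -0.45, the value nearest to 0 with any single library left out. Myl3, a muscle gene on the opposite strand that overlaps Pth1r, had 362 counts over all libraries against 40831 for Pth1r.

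Ptch1, the hedgehog receptor and itself a hedgehog target, lies at chr13:63508328-63573598. Its level was 84.1, 95.3 and 94.2 CPM in the controls and 96.5, 61.3 and 56.3 CPM in the mutants. Mutant replicates 2 and 3 lay below all controls, while mutant replicate 1 lay above all of them. The mean was 91.2 ± 6.15 CPM (SD, n = 3) in controls and 71.4 ± 21.9 CPM (SD, n = 3) in mutants, with a log2 fold change of -0.35 (SE 0.22) that ranged from -0.60, without mutant replicate 1, to -0.21, without mutant replicate 3.

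Hhip, a membrane protein that binds hedgehog ligands and is induced by the pathway it restrains, lies at chr8:79965851-80058006. Its level was 71.0, 86.2 and 97.0 CPM in the controls and 98.3, 55.0 and 56.5 CPM in the mutants. As for Ptch1, mutant replicates 2 and 3 were below all controls and mutant replicate 1 was above them. The mean was 84.7 ± 13.1 CPM (SD, n = 3) in controls and 70.0 ± 24.6 CPM (SD, n = 3) in mutants, with a log2 fold change of -0.28 (SE 0.24), that ran from -0.57 without mutant replicate 1 to -0.11 without mutant replicate 2 and was -0.15 without mutant replicate 3. Mutant replicate 1 had the largest share of reads not aligned, 18.9% against 12.0% to 15.2% in the others, and the highest summed markers of neutrophil precursors and of neurons and glia, 125 and 3562 CPM. The part of these in the level of any member was not tested.

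Smo, the membrane protein that Ptch1 holds inactive, lies at chr6:29735503-29761365. Its level was 254, 478 and 319 CPM in the controls and 484, 238 and 424 CPM in the mutants. The 2 groups covered nearly the same range, with the lowest and the highest library both mutants. The mean was 350 ± 116 CPM (SD, n = 3) in controls and 382 ± 128 CPM (SD, n = 3) in mutants, with a log2 fold change of 0.13 (SE 0.31). With 1 library left out it ran from -0.04, without control replicate 1 or mutant replicate 1, to 0.41 without control replicate 2 and 0.39 without mutant replicate 2. It also changed sign, to -0.01, when libraries were scaled by their totals alone, a scaling that moved the median of all genes to -0.13.

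Gli1, the activator whose level is widely used as a readout of hedgehog signalling, lies at chr10:127329882-127341974. Its level was 138, 211 and 146 CPM in the controls and 206, 114 and 165 CPM in the mutants. The means were nearly equal, at 165 ± 39.9 CPM (SD, n = 3) in controls and 161 ± 46.0 CPM (SD, n = 3) in mutants, with a log2 fold change of -0.03 (SE 0.25) that ran from -0.21 to 0.18 with 1 library left out. Arhgap9, on the opposite strand, had 291 counts against 9800 for Gli1. A difference in Gli1 smaller than the spread between libraries was not detectable here.

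Gli2, the main activator of the pathway, lies at chr1:118834132-119053619. Its level was 78.8, 70.1 and 53.8 CPM in the controls and 114, 75.0 and 72.8 CPM in the mutants. Mutant replicate 1 was above all controls and the other mutant libraries were within their range. The mean was 67.5 ± 12.7 CPM (SD, n = 3) in controls and 87.2 ± 23.1 CPM (SD, n = 3) in mutants, with a log2 fold change of 0.37 (SE 0.22), and 0.17 without mutant replicate 1.

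Gli3, which in the absence of ligand is cut to a repressor, lies at chr13:15463235-15730026. Its level was 28.4, 30.0 and 38.2 CPM in the controls and 20.7, 35.1 and 28.5 CPM in the mutants. Mutant replicate 1 was the lowest library for Gli3 and the highest for Gli2. The mean was 32.2 ± 5.29 CPM (SD, n = 3) in controls and 28.1 ± 7.20 CPM (SD, n = 3) in mutants, with a log2 fold change of -0.20 (SE 0.22) that was 0.02 without mutant replicate 1.

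**Figure D2:**
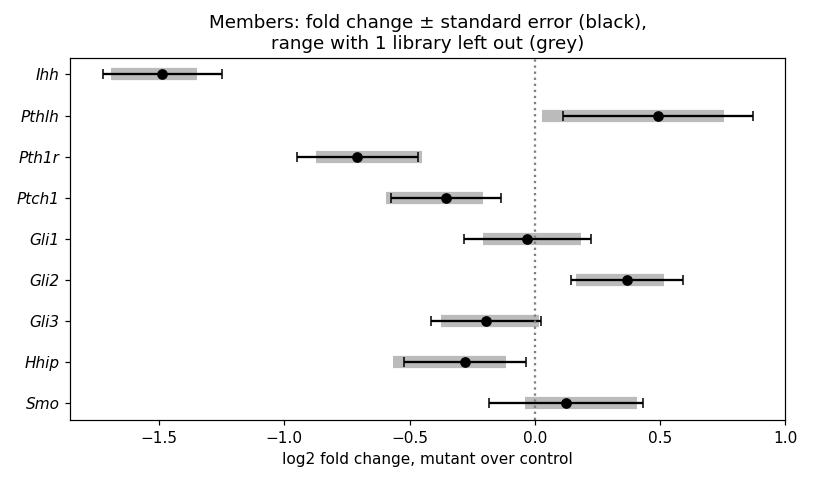
Log2 fold change of mutant over control for the 9 members (points), with the standard error of the edgeR fit (black bars) and the range of the value over the 6 fits with 1 library left out (grey bars). Ihh lies at -1.49 and Pth1r at -0.71, while the grey bars of Gli1, Gli3 and Smo cross 0 and that of Pthlh reaches 0.03.

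Levels of different genes were set in order after division by the length of their exons. In controls the order in CPM per kb was Pth1r at 286 ± 81.4, Smo at 62.3 ± 20.6, Ihh at 53.5 ± 14.4, Gli1 at 33.0 ± 7.99, Gli2 at 9.83 ± 1.85, Hhip at 9.33 ± 1.44, Ptch1 at 6.43 ± 0.43, Pthlh at 3.97 ± 0.58 and Gli3 at 3.36 ± 0.55 (SD, n = 3 each). The receptor for PTHrP thus had the highest level of the set and PTHrP itself one of the lowest. Neighbours whose control ranges overlapped, and whose order is therefore not set by these libraries, were Smo and Ihh, Ihh and Gli1, Gli2 and Hhip, and Pthlh and Gli3. In mutants Ihh was at 19.1 ± 2.99 CPM per kb (SD, n = 3) and Gli1 at 32.3 ± 9.22, and their mutant ranges, 15.6 to 20.9 and 22.8 to 41.2, did not overlap. Ihh was thus below Gli1 in mutants, while its order against Gli1 in controls was not set. Ptch1 and Pthlh exchanged ranks 7 and 8, with overlapping ranges in mutants.

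Ratios within a library need no scaling between libraries, and they use the same contrast that chose the set. The log2 ratio of Ihh to Gli1 counts was 0.45, -0.16 and -0.37 in the controls and -1.70, -1.26 and -1.37 in the mutants, with no overlap and a mean difference of -1.42. The ligand was therefore lower against its readout gene in all 3 mutant libraries. Against Pth1r, Ihh was also lower in each mutant library, with a mean difference of the log2 ratio of -0.79, and against Pthlh with one of -1.85. The ratios among Gli1, Ptch1, Hhip and Smo overlapped between the groups, with mean differences from -0.51 for Ptch1 to Smo and -0.43 for Hhip to Smo to 0.35 for Gli1 to Ptch1. The ratio of the activator Gli2 to Gli3 overlapped as well, with a mean difference of 0.57.

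Across the 6 libraries the levels of the members were set beside each other as Pearson correlations of log2 CPM, whose points share library and genotype. The 4 of the 36 pairs farthest from 0 come first. Ihh followed Pth1r at 0.93, Ptch1 followed Hhip at 0.95 and Gli1 followed Smo at 0.95, while Gli2 and Gli3 ran opposite at -0.92. Gli1 was at 0.60 with Hhip and 0.53 with Ptch1. Pthlh was at 0.69 with Smo, 0.67 with Gli1, 0.68 with Gli2 and -0.74 with Gli3. Ihh was at 0.27 with Gli1, 0.60 with Ptch1, 0.41 with Hhip and 0.04 with Smo.

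**Figure D3:**
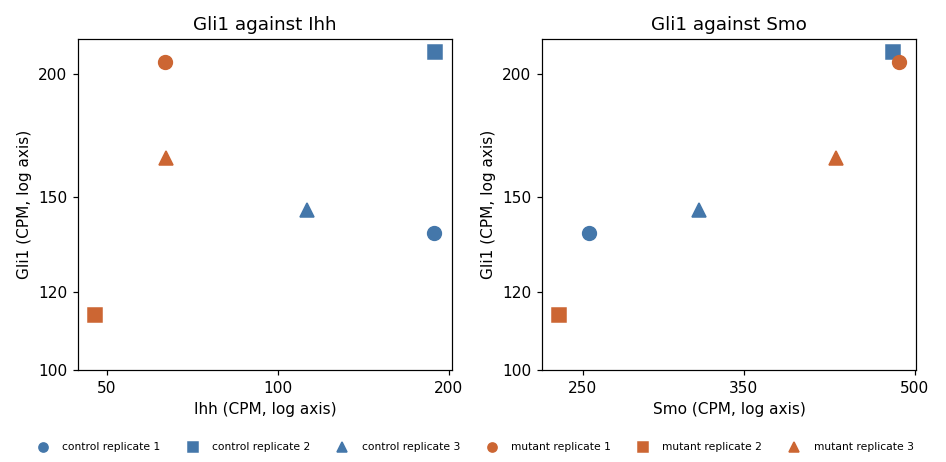
Level of Gli1 against that of Ihh (left) and of Smo (right) in CPM on log axes, with 1 point per library, controls in blue and mutants in orange. Mutant replicate 1 and control replicate 2 have nearly the same Gli1 level, 206 and 211 CPM, at Ihh levels of 63.3 and 189 CPM, while Gli1 rises with Smo over the 6 libraries.

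The genes whose log2 CPM ran most like that of Ihh over the 6 libraries, out of 12231 tested genes with a mean of at least 5 CPM, were Ccdc80 at a Pearson correlation of 0.991, Snapc1 at 0.990, Nrm at 0.985, Fxyd2 at 0.982 and Rspo4 at 0.980. Of these, Rspo4, a secreted enhancer of Wnt signalling, was at 26.4, 32.1 and 20.4 CPM in the controls and 9.10, 8.81 and 11.3 CPM in the mutants. Fxyd2, a regulatory subunit of the sodium pump, was at 311, 334 and 238 CPM in controls and 113, 97.2 and 146 CPM in mutants. A high correlation did not go with an equal size of difference, since the log2 fold change was -1.43 for Rspo4 and -1.31 for Fxyd2 but -0.72 for Nrm, -0.53 for Ccdc80 and -0.21 for Snapc1, whose groups ran from 13.7 to 14.8 and from 12.0 to 12.8 CPM. With Ihh, 0.548% of genes had a correlation of at least 0.9, and with Gli1 1.68% did. The genes most like Gli1 were Brat1 at 0.996, Gm10804 at 0.996, Plcxd1 at 0.994, Yipf3 at 0.994 and Prmt6 at 0.992, and in each of them mutant libraries lay on both sides of the controls' mean.

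Ihh is a product of prehypertrophic chondrocytes, so 15 markers of prehypertrophic and hypertrophic chondrocytes were set beside it. Panx3, Prkg2, Mef2c, Runx2, Runx3 and Dlx5 were lower in mutants at an unadjusted p under 0.05 in edgeR. That is 6 of 15 beside 4.32% of all genes, and none was higher, beside 2.89%. The list was chosen with earlier results of these data known, and the paper itself reports lower Panx3 in this series. The counts, and the p-values of these markers given below, are therefore a description and no independent support. Of the 15, 12 had a log2 fold change below 0 and 3 above 0, with a median of -0.55 against -0.01 over all genes. The median of the 15 was -0.34 without control replicate 1. The 3 above 0 were Ibsp at 0.44, Spp1 at 0.28 and Mef2d at 0.27. Spp1, a matrix protein of hypertrophic cells and bone, was at 662, 587 and 724 CPM in the controls and 828, 778 and 783 CPM in the mutants, with every mutant library above every control, and was not called. None passed after adjustment in edgeR. The number of markers called lower was 3 without mutant replicate 3 and 4 without control replicate 1, where Mef2d was called as higher, and 5 or 6 without any other library. The summed level of the 15 markers ranged from 2424 to 3376 CPM in controls and from 2313 to 2900 CPM in mutants, so the groups overlapped in the sum, in which abundant genes such as Spp1 and Alpl weigh most.

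Prkg2, a cGMP-dependent kinase that promotes hypertrophic differentiation, was at 79.4, 65.3 and 69.1 CPM in the controls and 22.5, 32.1 and 31.2 CPM in the mutants. All mutants lay below all controls, with a log2 fold change of -1.31 (SE 0.19) and an unadjusted p of 3.19e-05 and an adjusted p of 0.172 in edgeR. Over the alternatives the adjusted p of Prkg2 ran from 6.51e-06 in DESeq2 to 0.791 in edgeR without mutant replicate 1. Panx3, a channel protein of prehypertrophic cells, was at 108, 88.3 and 66.4 CPM in controls and 36.8, 45.6 and 27.7 CPM in mutants, a log2 fold change of -1.25 (SE 0.24) with an adjusted p of 0.411 in edgeR and from 0.000239 without a filter on low counts to 0.939 without mutant replicate 1 over the alternatives. Leaving out any single library ended the unadjusted call of neither gene.

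Mef2c and Runx2, transcription factors that drive hypertrophy, had log2 fold changes of -0.66 (SE 0.25) and -0.55 (SE 0.21), with unadjusted p of 0.0239 and 0.0282 in edgeR. Runx2 was at 132, 93.2 and 93.0 CPM in controls and 71.6, 87.5 and 58.8 CPM in mutants, and it was no longer called without control replicate 1 or without either of mutant replicates 1 and 3. Mef2c lost its call when control replicate 1 or 3, or mutant replicate 1 or 3, was left out. Col10a1, the collagen of hypertrophic cells, was at 640, 330 and 226 CPM in the controls and 328, 190 and 116 CPM in the mutants. Its groups overlapped, with a log2 fold change of -0.91 (SE 0.43) and an unadjusted p of 0.0573 in edgeR, and -0.37 without control replicate 1. It passed the unadjusted threshold in edgeR without control replicate 3, without mutant replicate 1, under library totals and without a filter on low counts, and in limma-voom.

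The log2 ratio of Ihh to each of these 5 markers differed less between the groups than the level of Ihh, as it must where the marker is lower in mutants too. The mean difference was -0.13 for Ihh to Prkg2 and -0.20 for Ihh to Panx3, and the groups overlapped. It was -0.55 for Ihh to Col10a1 and -0.79 for Ihh to Mef2c, again with overlap, and -0.91 for Ihh to Runx2, without overlap. Over single libraries the log2 ratio of Ihh to Prkg2 ran from 0.57 to 1.53, so the 2 genes did not keep a fixed proportion. The part of the number of prehypertrophic cells in the level of Ihh was not tested.

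**Figure D4:**
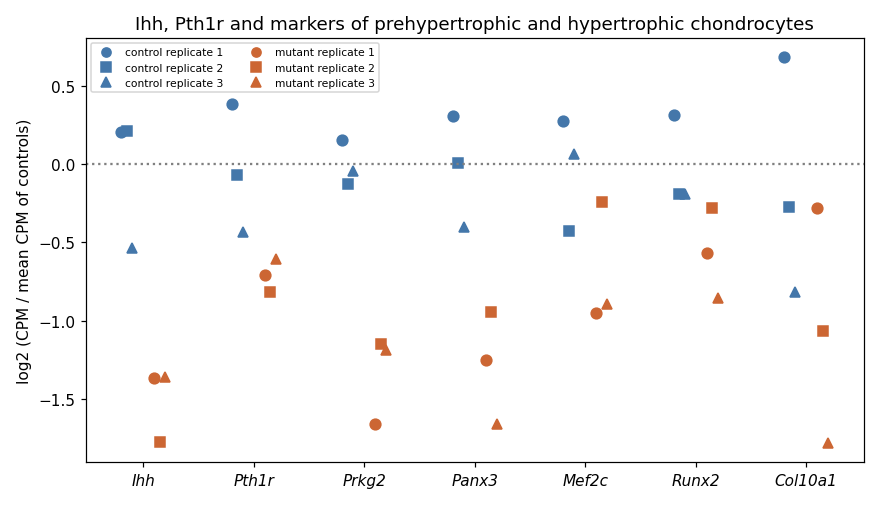
Log2 of the level in each library over the mean level of the controls for Ihh, Pth1r and 5 of the 15 markers of prehypertrophic and hypertrophic chondrocytes, all 5 with a log2 fold change below 0, with controls in blue, mutants in orange and replicates by marker shape. Mutant points lie below all control points for Ihh, Pth1r, Prkg2, Panx3 and Runx2, and overlap the controls for Mef2c and Col10a1.

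The other genes of the pathway were read from 6 lists with 68 genes, of which 63 were tested. 3 were lower and 1 was higher at an unadjusted p under 0.05 in edgeR, which is 6.35% of those tested and close to the 7.21% of all genes, and 59 were not called. None passed after adjustment in edgeR, DESeq2 or limma-voom, while 6 were called by DESeq2 and 4 by limma-voom without adjustment. The median log2 fold change over the 63 genes was 0.07.

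Among 7 other ligands and genes of ligand release, Scube2, a secreted protein that helps to free lipid-bound hedgehog from the cell, was lower and the others were not called, with a median of -0.19. Scube2 was at 13.4, 8.22 and 19.9 CPM in controls and 7.17, 7.35 and 8.61 CPM in mutants, so that control replicate 2 lay within the range of the mutants. Its log2 fold change was -0.85 (SE 0.32) with an unadjusted p of 0.0257 and an adjusted p of 0.676 in edgeR, and leaving out either control replicate 3 or one of mutant replicates 1 and 2 ended the call, as did limma-voom, which called Dync2h1 in its place.

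Among 7 other receptors and coreceptors, Gpc5, a cell-surface glypican, was lower at a log2 fold change of -1.97 (SE 0.66) with an unadjusted p of 0.0134 in edgeR, and the median was 0.22. Its controls were far apart, at 5.24, 17.7 and 42.5 CPM against 2.16, 8.16 and 6.27 CPM in mutants, the groups overlapped, and without control replicate 3 the value was -1.02 and no longer called. The other 6 were not called. With 1 library left out the median of the 7 ran from -0.07, without mutant replicate 3, to 0.30, without control replicate 1. In 2 of the 7 every mutant library lay above every control, beside 5.45% of all genes.

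Among 17 genes of signal transduction downstream of Smo none was called, with a median of 0.13. Those with the most counts, not divided by exon length, were Spop and Csnk1a1. Spop, an adaptor that brings Gli proteins to degradation, was at a mean of 132 ± 20.5 CPM (SD, n = 3) in controls and 153 ± 10.1 CPM in mutants. The kinase Csnk1a1 was at 82.5 ± 5.38 and 100.1 ± 7.46 CPM. Every mutant library lay above every control in 2 of the 17, Csnk1a1 among them, beside 5.45% of all genes. Among 13 genes of the primary cilium, the organelle in which Smo signals, Ift80, a protein of intraflagellar transport, was lower, at 20.8, 20.0 and 22.4 CPM in controls and 15.8, 16.2 and 12.4 CPM in mutants. The groups of Ift80 did not overlap, at a log2 fold change of -0.51 (SE 0.19) and an unadjusted p of 0.0255 in edgeR, and leaving out control replicate 1 or 3 or mutant replicate 3 ended the call. The other 12 were not called, with a median of -0.02 over the list. With 1 library left out that median ran from -0.15, without mutant replicate 2, to 0.03, without control replicate 3.

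Among 9 hedgehog target genes outside the set, Foxf1 and Foxc2 had no counts in any library and 7 were tested. Ccnd2, a cyclin of the G1 phase, was higher, at 136, 84.2 and 98.8 CPM in the controls and 165, 198 and 171 CPM in the mutants. All mutants lay above all controls, with a log2 fold change of 0.74 (SE 0.21), an unadjusted p of 0.00559 and an adjusted p of 0.676 in edgeR, and it was called with any library left out. The other 6 were not called, and the median of the 7 was 0.24. With 1 library left out that median ran from -0.08, without mutant replicate 1, to 0.47, without control replicate 2. It was -0.0005 without control replicate 1, so its sign rests on single libraries.

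Among 18 genes of the PTH family and of signalling below its receptor, Pth and Pth2 had no counts and Pth2r was too low to be tested. Pth2r was at 0.21, 1.22 and 3.05 CPM in the controls and 0.23, 0.49 and 0.425 CPM in the mutants. Among the alternatives it was called only without control replicate 1. The 15 genes tested had a median of 0.11. None of the 15 was called in either direction. Gnas, the stimulatory G protein subunit that couples Pth1r to cAMP, was at 1380 ± 127 CPM (SD, n = 3) in controls and 1486 ± 278 CPM in mutants, and Hdac5, a deacetylase that binds Mef2 factors, at 128 ± 22.2 and 151 ± 28.2 CPM. In none of the 15 were the groups apart.

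**Figure D5:**
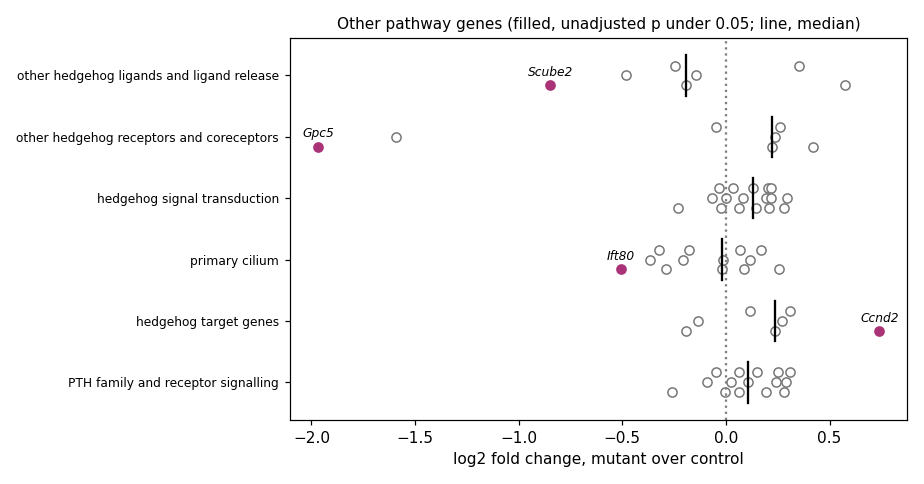
Log2 fold change of mutant over control for the tested genes of the 6 pathway lists, with 1 point per gene, filled where the unadjusted p of edgeR was under 0.05 and named there, and the median of each list as a vertical line. The filled points are Scube2, Gpc5, Ift80 and Ccnd2, and the medians lie between -0.19 and 0.24.

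Markers of other cell types moved with genotype or with single libraries, and their part in the levels of the members was not tested. At an unadjusted p under 0.05 in edgeR, 2.89% of all genes were higher and 4.32% lower. These lists too were chosen with earlier results of these data known, so their counts are a description. In tendon and outer annulus 3 of 7 markers were higher, with Thbs4 at a log2 fold change of 1.09 and summed levels of 2925 to 4267 CPM in controls and 3883 to 5462 CPM in mutants. In osteoblasts 3 of 9 were higher and 1 lower, with Bglap at 1.64 and Phex at -0.81. Of these 9, 6 had a log2 fold change above 0 and 3 below 0. Their summed levels were 4240 to 13443 CPM in controls and 12178 to 20688 CPM in mutants. Col1a1 made up most of that sum, at 3879 to 12862 CPM in controls and 11537 to 20231 CPM in mutants. In resting and proliferating chondrocytes 2 of 13 were lower, with Matn3 at -0.78. Of these 13, 11 had a log2 fold change below 0 and 2 above 0, with a median of -0.38. In 3 of them every mutant library lay below every control, beside 5.96% of all genes. Lower levels were thus not limited to the prehypertrophic and hypertrophic list. All 7 skeletal muscle markers were lower, with Myh4 at -3.73, and without control replicate 1 its value was -0.18 and no longer called. Myh4 was not called in limma-voom either.

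In red blood cell precursors 1 of 7 was higher, Slc4a1 at 2.68, with summed levels of 39.6 to 342 CPM in controls and 213 to 449 CPM in mutants. All 7 had a log2 fold change above 0, with a median of 1.02. In neutrophil precursors 2 of 7 were higher, with Mpo at 2.15 and sums of 11.5 to 46.9 CPM and 28.2 to 125 CPM. Here too all 7 were above 0, with a median of 1.02. In neurons and glia 1 of 5 was higher, Gfap at 1.93, with sums of 216 to 1643 CPM and 901 to 3562 CPM and with Tubb3 at 0 in every library. In macrophages 1 of 5 was higher, Cd68 at 0.74, with sums of 30.2 to 43.2 CPM and 35.9 to 53.5 CPM. Cd68 lost its call under library totals, without a filter on low counts and with any single library other than control replicate 1 left out. Phex lost its call in limma-voom and without control replicate 3 or any mutant library, and Matn3 without control replicate 1 or mutant replicate 2 or 3. No marker was called among 7 of nucleus pulposus and notochord, 5 of endothelium and 4 of osteoclasts, whose sums were 90.2 to 191 and 154 to 177 CPM in endothelium and 111 to 162 and 83.5 to 218 CPM over all 7 listed genes of osteoclasts, of which Ocstamp, Dcstamp and Calcr were too low to be tested.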

How the data were processed

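RNA from IVDs of 3 mutant and 3 control pools was sequenced as poly(A) libraries, and the authors deposited raw counts per gene symbol for each. Their methods name Cutadapt, FastQC and HISAT2 on GRCm38.88, while the submitters' processing notes name STAR 2.5.3a, HTSeq, DESeq2, mm10 and GRCm38. The strand setting is not given in the sources used here, so reads of overlapping opposite-strand genes cannot be told apart. The deposited comparison table (fold changes, p-values and size-factor-normalized values) was not used. Rows without a gene (39.4% to 43.3% no feature, 0.846% to 1.05% ambiguous, 12.0% to 18.9% not aligned) were left out.

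The genotypes were tested against each other in R 4.3.3 with edgeR 4.0.16 (TMM, filterByExpr with a count minimum of 10, quasi-likelihood test, Benjamini-Hochberg adjustment over 16152 genes). Log2 CPM used a prior count of 2. The fit was tested on simulated data. The members and lists were chosen with earlier results of these data known. Named genes were the members and the called genes of each pathway list, or else its 2 with most counts over all libraries, not divided by exon length. Also named were the called marker with the smallest p in each direction, 5 listed hypertrophic markers, and the 5 genes most like Ihh and most like Gli1. Prss50, Ibsp, Spp1, Mef2d, Runx3, Dlx5, Alpl, Dync2h1, Scube1, Col1a1, Col2a1 and Pth2r were named outside this rule after their values were seen. Alternatives were RLE factors, library totals, no filter, the replicate block, DESeq2 1.42.0, limma-voom (limma 3.58.1) and each library left out. With pools as replicates, the p-values weigh the group difference against the spread between pools, moderated across genes. The spread between single mice is not seen, and depth covers counting error only. Gene coordinates come from GENCODE M21 (GRCm38).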

Additional observations from a re-analysis of the deposited data

How the results depend on the processing

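For all 9 members the log2 fold change kept its size within the standard error under other scalings, the replicate block, no filter, DESeq2 and limma-voom, and Smo alone changed sign, under library totals. Left-out libraries changed the sign of Gli1, Gli3 and Smo. The counts of members at an unadjusted p under 0.05, given as a description, were 2 (Ihh and Pth1r), 3 with Ptch1 under library totals and in limma-voom, and 1 to 4 with a library left out: Ihh alone without control replicate 1 or mutant replicate 2, and all of Ihh, Pth1r, Ptch1 and Hhip without mutant replicate 1. The 1164 genes called without adjustment became 2276 without a filter on low counts and 618 (without control replicate 3) to 2427 (without control replicate 1) with a library left out. The 1 gene called after adjustment became 58 in DESeq2, 0 in limma-voom, 245 without a filter, 0 with the replicate block and 0 to 31 with a library left out, 31 without control replicate 1. Pathway genes called were 4, 7 without a filter and 2 to 7 with a library left out. The cause was not tested.

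The replicate numbers of the labels were used as a replicate block, which called 1002 genes without adjustment, the same 2 members and 4 pathway genes, of which 3 were shared with the fit without it. Under the block Ift80 lost its call at an unadjusted p of 0.0519 in edgeR and Scube1 gained one, Col10a1 gained one at 0.00149, and Cd68, Phex and Myh4 lost theirs. Deviations of same-numbered libraries from their group means correlated at 0.16, -0.13 and 0.10 for replicates 1, 2 and 3, and not every library correlated best with its own number, so the numbers were not taken to pair the libraries. With 3 libraries per group and an SE of 0.22 to 0.38 for the log2 fold change of the members, small changes were not detectable, least of all for Pthlh with 50 to 127 counts per library.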
